A study of Mus musculus with 6 samples.

Results

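The 10 genes described here encode transglutaminases and early scaffold proteins of the cornified envelope, with further proteins of the suprabasal layers of the epidermis, namely *Tgm1*, *Tgm3*, *Ivl*, *Evpl*, *Ppl*, *Sbsn*, *Krtdap*, *Cnfn*, *Crct1* and *Prr9*. They were chosen by name, with no measured value in the rule, from the 55367 gene names of the count table. Earlier results of these data were known when they were chosen. All 10 were among the 14916 genes with enough counts to be tested. Primary mouse keratinocytes, epidermal cells of day 2 pups grown without immortalization, were taken in 3 batches, and each batch was divided into a culture with tamoxifen (iASPP KO) and a culture without it (iASPP WT), which gave 6 RNA-seq libraries. All cultures had the genotype *Ppp1r13l*flox/flox;Cre+ERT on a mixed C57BL/6 and 129/Sv background. Both conditions therefore carried the floxed alleles of *Ppp1r13l*, the gene of iASPP, and a tamoxifen-inducible Cre recombinase expressed from the ROSA26 locus in all cell types. The cultures were started in low-calcium medium, and the medium with or without tamoxifen was added after 24 h and kept on for 4 days, at a tamoxifen concentration of 1 mM in the labels and 1 μM in the methods. No culture without the Cre received tamoxifen, so effects of the drug and of the deletion cannot be told apart. The labels name batches and not animals, so the p-values below measure the spread between these cultures. The comparison addresses how loss of iASPP alters the transcripts of keratinocytes.

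The cornified envelope is the insoluble protein shell that a keratinocyte lays down under its plasma membrane as it leaves the basal layer and becomes a dead corneocyte. Envoplakin and periplakin, 2 plakins that also bind keratin filaments and desmosomes, form the first scaffold with involucrin, and transglutaminases link these proteins to each other through isopeptide bonds. Further proteins are added to this base, and specialised lipids are bound to its outer face. In culture, low calcium holds keratinocytes in a basal state, in which envelope genes are expressed at a lower level than in differentiating cells. By mean CPM in these cultures, the 10 genes ranked from 95 (*Sbsn*) to 6295 (*Cnfn*) among the 14916 tested genes.

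*Ppp1r13l* was examined first as a check of the labels. It had 14.3, 17.7 and 5.91 CPM (counts scaled to the size of the library with TMM factors) in the iASPP KO libraries of batches 1, 2 and 3, and 32.7, 45.1 and 21.0 CPM in the iASPP WT libraries. Every KO library lay below every WT library, and the fitted log2 fold change was -1.45 ± 0.18 (SE, n = 3 each). The adjusted p was 0.00296 in edgeR's quasi-likelihood test, which had batch in the model and Benjamini-Hochberg adjustment over all tested genes and gave all adjusted p-values below unless another tool is named. Totals ran from 20202517 to 25157117 counts per library, and 3 counts correspond to 0.123 to 0.141 CPM, so all 10 genes were far above that level in every library. Summed over 10 keratinocyte markers, the level was 27500 to 33500 CPM, and none of these markers passed the test in either direction (1 was higher and 0 lower at an unadjusted p under 0.05, and 0 with DESeq2). Fibroblast markers summed to 36.5 to 53.5 CPM in batches 1 and 2 and to 469 (KO) and 685 (WT) in batch 3, and 2 of 8, *Col1a2* and *Col3a1*, were lower in iASPP KO. At an unadjusted p under 0.05, 1 was higher (*Pdgfra*, log2 fold change 0.81) and 2 were lower, and DESeq2 called 0 higher and 2 lower. Leukocyte and macrophage markers summed to 65.0 to 80.9 CPM in KO and 43.6 to 63.6 in WT, *Cd3e* was at 0 in all libraries, and *Csf1r*, a macrophage receptor, was higher in iASPP KO. These sums hide unlike batch patterns. *Csf1r* was lowest in batch 3 (5.23 CPM in KO and 1.92 in WT), where *Lyz2*, a further marker of this list, was highest (59.1 and 49.6). The 6 melanocyte markers summed to 341 to 1090 CPM and the 5 endothelial ones to 3.87 to 21.5 CPM, with none past the test. The part of these other cell types in the results below was not tested. Batch 3 stood apart from the other batches, and its values are given beside each gene.

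Promoter windows of the genes, from 250 bases before to 50 bases after the transcription start, were available for 7 of the 10 (RefSeq, GRCm38.p6), in 8 windows since *Tgm1* has 2. The AP-1 word TGANTCA, which is its own reverse complement, occurred in windows of 4 of these 7 genes, *Ivl*, *Krtdap*, *Prr9* and *Sbsn*, and in 7.81% of all 32851 windows (8.97% of 27025 genes). AP-1 is a family of Jun and Fos dimers that is known to act on the involucrin promoter. The word TATAAA, searched on both strands, occurred in 4 of the 7, *Ivl*, *Krtdap*, *Prr9* and *Tgm3*, and in 13.6% of all windows (15.7% of genes). The 4 sequences that hold the AP-1 word are shown from 150 bases before the start to the start itself, on the gene's own strand and 5′ to 3′, with the AP-1 word in capitals, so that its place can be compared between genes that passed the test of expression and genes that did not. *Ivl* is at chr3:92573735-92573885 (reverse strand), *Prr9* at chr3:92123947-92124097 (reverse strand), *Sbsn* at chr7:30751321-30751471 (forward strand) and *Krtdap* at chr7:30787755-30787905 (forward strand).
Ivl: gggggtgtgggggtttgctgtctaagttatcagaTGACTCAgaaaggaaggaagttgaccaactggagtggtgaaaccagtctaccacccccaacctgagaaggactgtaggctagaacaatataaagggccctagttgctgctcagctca
Prr9: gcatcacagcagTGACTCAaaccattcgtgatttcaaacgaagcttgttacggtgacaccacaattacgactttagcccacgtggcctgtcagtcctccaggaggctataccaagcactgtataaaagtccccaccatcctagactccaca
Sbsn: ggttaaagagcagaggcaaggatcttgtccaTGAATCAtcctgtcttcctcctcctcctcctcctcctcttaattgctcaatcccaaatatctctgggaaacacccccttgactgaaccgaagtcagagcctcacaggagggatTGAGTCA
Krtdap: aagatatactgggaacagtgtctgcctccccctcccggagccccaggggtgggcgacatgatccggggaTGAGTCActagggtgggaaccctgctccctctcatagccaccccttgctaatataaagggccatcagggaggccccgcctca
The word begins 116 bases before the start in *Ivl*, 138 before it in *Prr9* and 81 before it in *Krtdap*. In *Sbsn* it occurs 119 bases and again 6 bases before the start, the second time reaching the start. Of these 4 genes, *Prr9* and *Sbsn* were significantly higher in iASPP KO and *Ivl* and *Krtdap* did not pass the test (values below). Genes with the word were thus found on either side of the threshold. *Ivl* was nonetheless higher in KO in every batch (fitted log2 fold change 0.62) and passed under some settings, while *Krtdap* had a fitted value of -0.23. A matching word is a description of the sequence, and binding was not measured here.

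Of the 10 genes, 6 were significantly higher in iASPP KO, *Prr9*, *Crct1*, *Tgm3*, *Sbsn*, *Tgm1* and *Ppl*, and none was significantly lower. Over all tested genes, 2.17% were called higher and 1.95% lower. At an unadjusted p under 0.05, 7 of the 10 were higher and 0 lower, and DESeq2 called 6 higher and 0 lower. The fitted log2 fold change was above 0 for 9 of the 10, against 50.6% of all tested genes, with a median of 0.64 against 0.01. The rises spanned 1.43-fold (*Ppl*) to 3.87-fold (*Prr9*). In 7 of the 10 the KO culture was higher than the WT culture in each of the 3 batches, as in 19.5% of all tested genes. By batch, 10, 9 and 7 of them were higher in the KO culture of batches 1, 2 and 3, with median within-batch log2 differences of 0.88, 0.64 and 0.39. *Crct1* was the only one of the 10 with every KO library above every WT library, which held for 5.26% of all tested genes, and in the other 9 the conditions overlapped. Without batch in the model, none of the 10 passed and 1 had an unadjusted p under 0.05. In bulk RNA, a change in the share of cells of a type and a change in RNA per cell cannot be told apart.

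**Figure D1:**
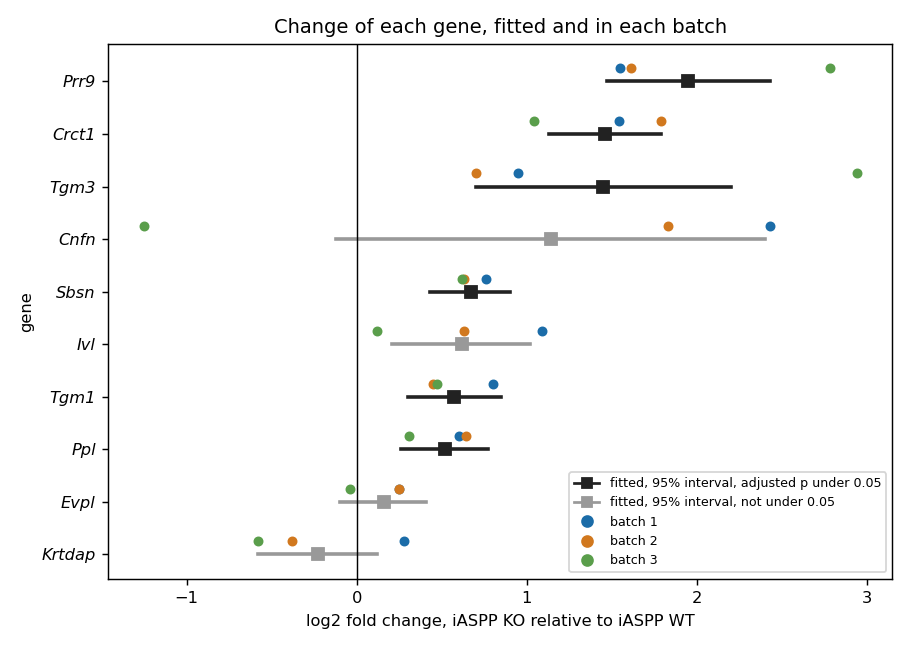
The x axis gives the log2 fold change of each of the 10 genes (iASPP KO relative to iASPP WT), with squares and bars for the fitted value and its 95% interval (black where the adjusted p was under 0.05, grey otherwise) and coloured points for the 3 within-batch differences. The black squares run from 0.52 (*Ppl*) to 1.95 (*Prr9*), and the points of *Cnfn* lie on either side of 0.

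The crosslinking enzymes came first in the order of roles. *Tgm1* (chromosome 14, 55700009 to 55713926, GRCm38, reverse strand, 15 exons) encodes transglutaminase 1, the membrane-anchored enzyme whose loss in people causes lamellar ichthyosis. It had 185, 148 and 35.4 CPM in the iASPP KO libraries of batches 1, 2 and 3 and 106, 109 and 25.6 CPM in the WT libraries. The KO culture was the higher one in every batch, while both batch 3 libraries lay below all others, so the conditions overlapped. The fitted log2 fold change was 0.57 (standard error 0.12, 95% interval 0.30 to 0.85, adjusted p = 0.0292), or 1.49-fold, and the within-batch differences were 0.80, 0.45 and 0.47. It did not pass with batch 1 left out (adjusted p = 0.222) or batch 2 left out (0.112). Of the 42-base windows of its transcript, 5.05% also occur in *Gm49067*, an overlapping gene on the other strand with 10 counts in all 6 libraries together.

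*Tgm3* (chromosome 2, 130012349 to 130050399, forward strand, 13 exons) encodes transglutaminase 3, a soluble enzyme of the later epidermal layers and the hair follicle that is activated by proteolysis. It had 165, 143 and 60.0 CPM in iASPP KO and 85.2, 88.1 and 7.75 CPM in iASPP WT. The WT library of batch 3 stood far below the other five, and the KO library of batch 3 was below the WT libraries of batches 1 and 2. The fitted log2 fold change was 1.45 (standard error 0.34, 95% interval 0.70 to 2.20, adjusted p = 0.0428), or 2.73-fold, with within-batch folds of 1.94, 1.62 and 7.75. With batch 3 left out the log2 fold change was 0.83 and *Tgm3* still passed. It did not pass with DESeq2 (adjusted p = 0.165) or with edgeR's robust dispersion (0.42).

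Relative to each other, the enzymes had a similar ratio in 4 of the libraries and a different one in batch 3. The level of *Tgm1* per length of exon (RPKM, which is CPM divided by the kilobases of exon) was 1.46, 1.35 and 0.771 times that of *Tgm3* in the KO libraries of batches 1, 2 and 3, and 1.63, 1.61 and 4.31 times in the WT libraries. *Tchh*, the gene of trichohyalin of the inner root sheath of hair, was also low in the WT library of batch 3, with 14.4 CPM there, 182 and 270 CPM in the other WT libraries and 213, 229 and 90.0 CPM in iASPP KO. The hair follicle markers, *Tchh* included, summed to 20.4 CPM in WT of batch 3 and 102 to 273 CPM in the other five. *Tchh* made up most of each of these sums. *Padi3*, the only other marker tested, went the other way, with 5.57 CPM in WT of batch 3 and 1.45 and 1.35 CPM in WT of batches 1 and 2. In iASPP KO it had 1.87, 3.37 and 11.5 CPM. Of the 12 listed, 9 were too low to be tested, and the part of hair follicle cells in the result of *Tgm3* was not tested. Of 7 other members of the transglutaminase family, 3 were tested and none passed in either direction (0 at an unadjusted p under 0.05, 0 with DESeq2), with a median log2 fold change of -0.33. The most abundant was *Tgm5*, a further epidermal transglutaminase, with 12.4 ± 8.08 CPM in KO and 15.1 ± 6.76 in WT (SD, n = 3 each, log2 fold change -0.38, 95% interval -0.87 to 0.12). *Tgm2*, the widely expressed tissue transglutaminase, had at most 1.49 CPM in any library.

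**Figure D2:**
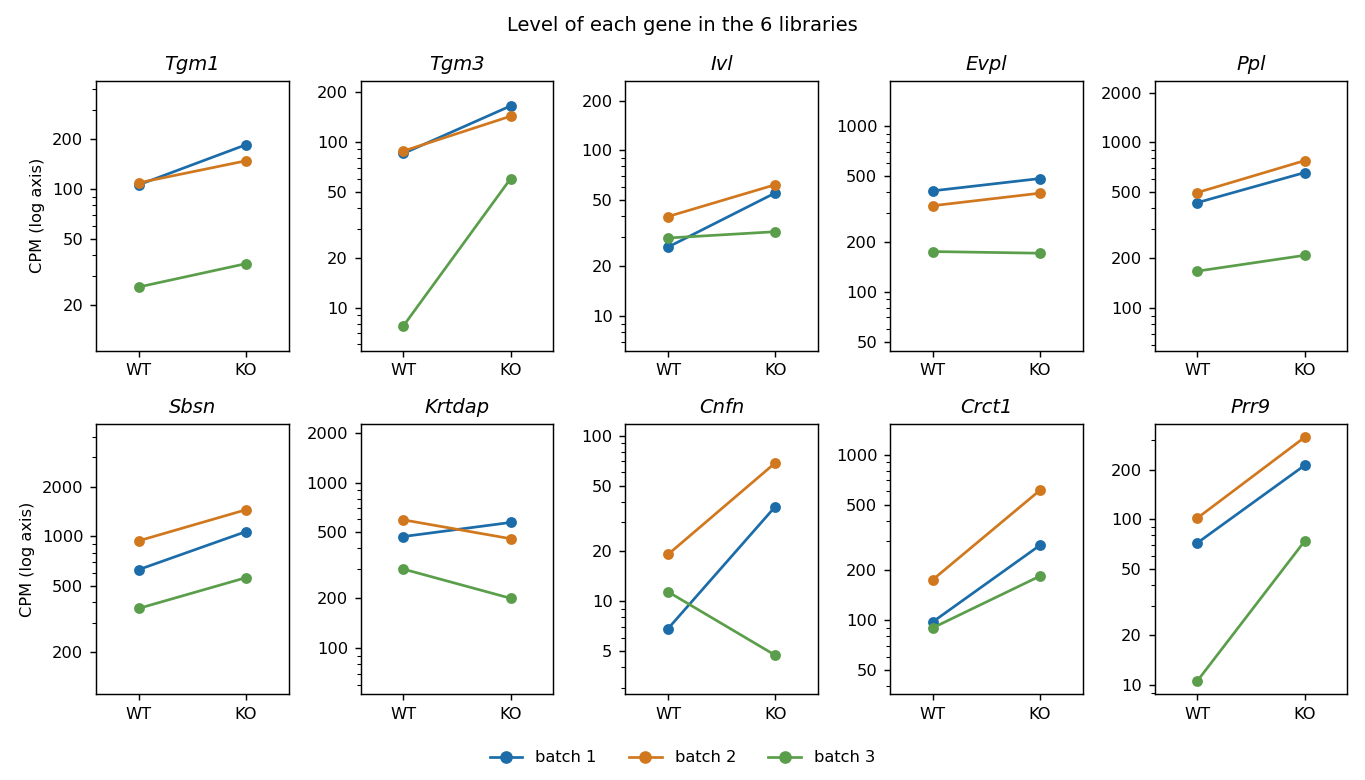
The level in CPM (log axis, the same span in every panel) of each of the 10 genes is plotted for iASPP WT and iASPP KO, with a line joining the 2 cultures of a batch. Most lines climb from WT to KO and most batch 3 lines lie lowest, with the steepest ones for *Tgm3* and *Prr9* in batch 3 and a descending one for *Cnfn* in batch 3.

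Among the scaffold genes, *Ppl* passed the test and *Evpl* and *Ivl* did not. *Ppl* (chromosome 16, 5086291 to 5132421, reverse strand) encodes periplakin, a plakin of the envelope and of desmosomes. It had 657, 776 and 208 CPM in iASPP KO and 433, 498 and 167 CPM in iASPP WT. The KO culture was higher in all 3 batches, and both batch 3 libraries were again the lowest. The log2 fold change was 0.52 (standard error 0.11, 95% interval 0.26 to 0.77, adjusted p = 0.034), or 1.43-fold, and the within-batch differences were 0.60, 0.64 and 0.31. It did not pass with batch 1 (adjusted p = 0.181) or batch 2 (0.251) left out.

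*Evpl* (chromosome 11, 116220559 to 116238077, reverse strand) encodes envoplakin, the partner with which periplakin forms heterodimers. It had 483, 394 and 171 CPM in iASPP KO and 407, 331 and 175 CPM in iASPP WT. The cultures differed little within each batch, and the KO one was the lower in batch 3. The log2 fold change was 0.16 (standard error 0.11, 95% interval -0.10 to 0.41, adjusted p = 0.571), so a rise of up to 1.33-fold lies within the interval. Per length of exon, *Evpl* had 0.795, 0.549 and 0.887 times the RPKM of *Ppl* in KO and 1.01, 0.717 and 1.13 times in WT, a lower ratio in KO in each batch. The difference between the 2 genes' changes was not tested. Of 5 other plakin genes, none passed in either direction (0 higher and 2 lower at an unadjusted p under 0.05, 0 with DESeq2), with a median log2 fold change of -0.18. *Dsp*, the gene of desmoplakin, had 4930 ± 1660 CPM in KO and 4440 ± 1640 in WT (SD, n = 3 each, log2 fold change 0.17, 95% interval -0.06 to 0.39).

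*Ivl* (chromosome 3, 92570902 to 92573735, reverse strand) encodes involucrin, a glutamine-rich substrate of transglutaminase 1 that covers the inner face of the membrane. Its counts were 1244, 1383 and 760 in the KO libraries and 556, 974 and 665 in the WT libraries, or 55.4, 62.1 and 32.3 CPM against 26.1, 39.9 and 29.6 CPM. It was higher in KO in every batch, by 2.13-fold in batch 1 and 1.09-fold in batch 3, and the KO library of batch 3 lay between the WT libraries. The log2 fold change of 0.62 (standard error 0.18, 95% interval 0.21 to 1.02, adjusted p = 0.1) was close to that of *Tgm1*, with a wider error. The call turned on the setting. *Ivl* passed with DESeq2 (adjusted p = 0.0484), without the filter on low counts (0.00502) and with batch 3 left out (3.6e-06), and over all settings the adjusted p ran from 3.6e-06 to 0.973. The smallest of these p-values leans on the spread shared over all genes. In WT, the level of *Ivl* in batch 3 lay between those of batches 1 and 2.

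The remaining 5 genes encode further proteins of the suprabasal layers, and 3 of them passed the test. *Prr9* (chromosome 3, 92122204 to 92123947, reverse strand), a gene of a small proline-rich protein in the epidermal differentiation complex, the chromosomal cluster of envelope genes, had the largest fitted change of the 10 over all 3 batches. It had 212, 313 and 73.9 CPM in iASPP KO and 72.2, 102 and 10.6 CPM in iASPP WT. The KO culture was about as far above its WT partner in batches 1 and 2, and further above it in batch 3, where WT was lowest. The log2 fold change was 1.95 (standard error 0.21, 95% interval 1.47 to 2.43, adjusted p = 0.00155), or 3.87-fold, with within-batch differences of 1.55, 1.61 and 2.78. With batch 3 left out it was 1.58, below those of *Cnfn* (2.12) and *Crct1* (1.67), and *Prr9* passed with each batch left out in turn.

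*Crct1* (chromosome 3, 93014205 to 93015687, reverse strand), in the same cluster, encodes a small cysteine-rich protein. It had 284, 610 and 185 CPM in iASPP KO and 97.9, 176 and 90.1 CPM in iASPP WT. The lowest KO library, that of batch 3, was above the highest WT library, that of batch 2. The log2 fold change was 1.46 (standard error 0.15, 95% interval 1.13 to 1.79, adjusted p = 0.00119), or 2.75-fold, with within-batch differences of 1.54, 1.79 and 1.04. It had the smallest adjusted p of the 10 and passed with each batch left out in turn.

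*Sbsn* (chromosome 7, 30751471 to 30756134, forward strand) encodes suprabasin, a secreted protein of suprabasal cells and a transglutaminase substrate. It had 1070, 1450 and 564 CPM in iASPP KO and 631, 942 and 368 CPM in iASPP WT, the highest CPM of the 10 in every library. The change was nearly the same in all batches, with log2 differences of 0.76, 0.63 and 0.62. The fitted log2 fold change was 0.67 (standard error 0.11, 95% interval 0.43 to 0.90, adjusted p = 0.00864), or 1.59-fold. With 2 batches the adjusted p was 0.0515 (without batch 1) and 0.0568 (without batch 2). It shares 279 bases of exon, 7.7% of its exon length, with *Tmem147os* on the same strand, a gene with 981 counts in all 6 libraries together.

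*Krtdap* (chromosome 7, 30787896 to 30791097, forward strand), 31.8 kb from *Sbsn* with *Dmkn* between them, encodes a small secreted protein of differentiating keratinocytes. It had 574, 458 and 200 CPM in iASPP KO and 472, 595 and 300 CPM in iASPP WT. It was higher in KO in batch 1 and lower in the other two. Its log2 fold change was the only one of the 10 below 0, at -0.23 (standard error 0.16, 95% interval -0.58 to 0.12, adjusted p = 0.548), and its adjusted p stayed at 0.171 or above under every setting. *Dmkn*, which encodes dermokine, stood at 0.36 on the same log2 scale (SE 0.11, adjusted p = 0.0943).

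*Cnfn* (chromosome 7, 25367620 to 25369724, reverse strand) encodes cornifelin, a small cysteine-rich envelope protein. Its counts were 838, 1525 and 111 in iASPP KO and 146, 469 and 255 in iASPP WT, or 37.3, 68.5 and 4.72 CPM against 6.84, 19.2 and 11.4 CPM. It was 5.46-fold and 3.56-fold higher in KO in batches 1 and 2 and 0.415 times the WT level in batch 3, the widest disagreement among the 10. Over all batches the log2 fold change was 1.14 (standard error 0.57, 95% interval -0.12 to 2.40, adjusted p = 0.353). With batch 3 left out it was 2.12 (adjusted p = 7.4e-27), and it also passed without the filter on low counts (6.4e-06). The errors of these fits lean on the spread shared over all genes, so such small p-values do not measure how well *Cnfn* repeats between batches. Each batch holds 1 library per condition, so whether the change differs between batches cannot be tested.

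In iASPP WT, most of the 10 genes were lowest in batch 3. The level in batch 3 relative to the mean of batches 1 and 2 had a median of 0.471 in WT (0.0894 for *Tgm3* to 0.898 for *Ivl*) and of 0.388 in KO (0.0892 for *Cnfn* to 0.55 for *Ivl*), while the median over all tested genes was 0.986 and 1.01. All 10 were lowest in batch 3 in KO and 8 in WT, against 38.4% and 40.0% of all tested genes. In both conditions 8 were lowest there, as were 25.5% of all tested genes. The 2 exceptions in WT were *Ivl* and *Cnfn*. Summed over the 10 genes, the level was 3720, 4430 and 1530 CPM in KO and 2340, 2900 and 1180 CPM in WT, and KO was 1.59, 1.53 and 1.29 times WT in batches 1, 2 and 3. *Sbsn* alone made up 27.0% to 36.8% of the sum. Without batch 3, 8 of the 10 were significantly higher, the 6 above with *Ivl* and *Cnfn*, and 5.20% of all tested genes were. The fibroblast markers were highest in batch 3, and their part in the lower levels of the 10 genes there was not tested.

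Levels of different genes were compared per length of exon. In iASPP WT the mean RPKM was highest for *Krtdap* (671 ± 218, SD, n = 3), followed by *Sbsn* (178 ± 79.3) and *Crct1* (153 ± 59.9). *Ppl* (53.1 ± 25.4), *Prr9* (52.2 ± 39.5) and *Evpl* (47.6 ± 18.5) formed a middle group whose order was not the same in all libraries. *Tgm1* (25.3 ± 15.0), *Cnfn* (17.4 ± 8.73), *Ivl* (16.6 ± 3.76) and *Tgm3* (14.6 ± 11.0) were lowest, and their neighbours in the order overlapped. Of the pairs next to each other in this order, *Krtdap* over *Sbsn*, *Crct1* over *Ppl* and *Evpl* over *Tgm1* held in all 3 WT libraries, and the others did not.

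In iASPP KO the order by mean RPKM was *Krtdap* (605 ± 282), *Crct1* (454 ± 281), *Sbsn* (284 ± 123), *Prr9* (169 ± 101), *Ppl* (79.3 ± 43.5), *Evpl* (54.7 ± 25.2), *Cnfn* (51.2 ± 44.3), *Tgm1* (38.9 ± 24.7), *Tgm3* (29.7 ± 13.4) and *Ivl* (26.0 ± 8.14). *Crct1* thus stood above *Sbsn* in all 3 KO libraries, where in WT it was below *Sbsn* in 2 of 3. *Prr9* was above *Ppl* in all 3 KO libraries and above it in 1 of 3 WT libraries. *Krtdap* had the highest RPKM of the 10 in 5 of the 6 libraries, and *Crct1* in the KO library of batch 2. Relative to *Krtdap*, *Crct1* had 0.424, 1.14 and 0.794 times its RPKM in KO and 0.178, 0.254 and 0.258 times in WT.

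**Figure D3:**
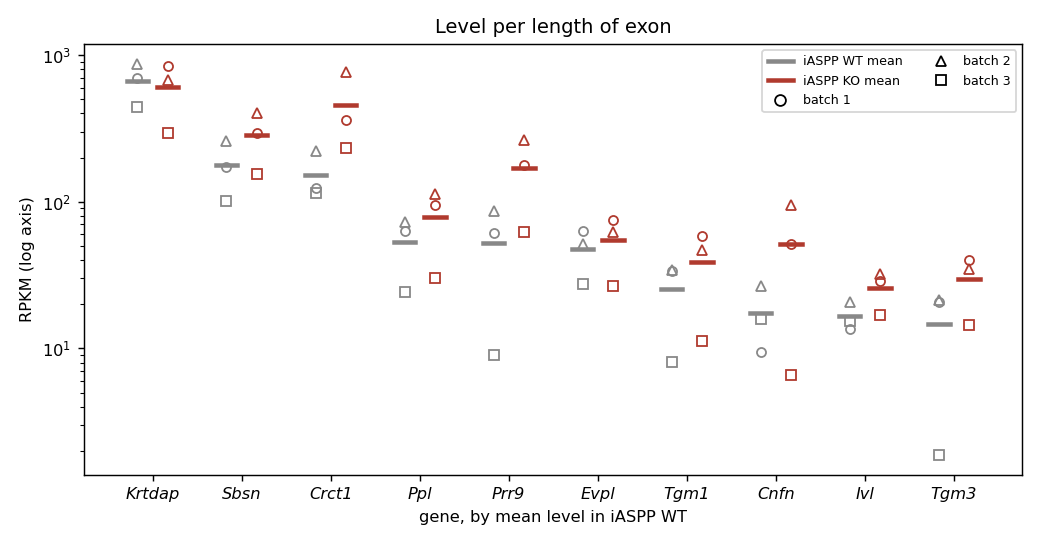
The level per length of exon (RPKM, log axis) is shown for the 10 genes in order of their mean in iASPP WT, with 1 symbol per library (circle, triangle and square for batches 1, 2 and 3) and a bar for the mean of 3 libraries, grey for WT and red for KO. *Krtdap* is highest in WT with a mean of 671, and the red means of *Crct1* (454) and *Prr9* (169) are raised relative to their neighbours.

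The genes lie on 6 chromosomes. Of the 3 in the epidermal differentiation complex on chromosome 3 (*Prr9*, *Ivl* and *Crct1*, 447 and 440 kb apart), 2 were significantly higher and the median log2 fold change was 1.46. Of the 3 on chromosome 7 (*Cnfn*, *Sbsn* and *Krtdap*) 1 was higher, with a median of 0.67. Of the other 4, *Tgm1*, *Tgm3*, *Evpl* and *Ppl*, 3 were higher, with a median of 0.55. The nearest tested gene on each side of each of the 10 gave 19 distinct genes, none of which passed in either direction (4 higher and 0 lower at an unadjusted p under 0.05, 1 higher and 0 lower with DESeq2), with a median log2 fold change of 0.13. The neighbours of *Crct1*, *Lce3f* and *Lce1m*, had log2 fold changes of 1.25 (adjusted p = 0.169) and 0.72 (adjusted p = 0.181).

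Other genes of the envelope and of the suprabasal layers moved in both directions. Of 57 listed, 53 were tested, 10 were significantly higher and 3 lower in iASPP KO, with a median log2 fold change of 0.36. At an unadjusted p under 0.05, 18 were higher and 6 lower, and DESeq2 called 13 higher and 3 lower. The significantly higher ones with the largest changes were *Sprr2e* (1.91), *Tchhl1* (1.86), *Sprr2h* (1.71), *Sprr2d* (1.58) and *Sprr2g* (1.57). *Sprr2* genes encode small proline-rich proteins that transglutaminases join into the envelope. Their sequences are alike, so reads may be lost or placed on another copy, and each value is uncertain. Sharing of reads among these genes was not measured. *Tchhl1* had 23.8 ± 9.72 CPM in KO and 6.59 ± 3.1 in WT (SD, n = 3 each). The significantly lower ones were *Flg2* (-2.16), *Krt10* (-1.31) and *Flg* (-0.89), the genes of filaggrin 2, of the early suprabasal keratin 10 and of filaggrin. *Krt10* had 33.2, 21.8 and 9.09 CPM in KO and 134, 65.6 and 10.1 CPM in WT.

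Genes of the lipid envelope, which is bound to the outer face of the scaffold, were also examined. This list and that of the regulators were shortened after their values were seen, so neither is described as a whole. Of 12 genes of the lipid envelope that are reported, those significantly higher (log2 fold changes in brackets) were *Cyp4f39* (0.68), which hydroxylates very long fatty acids, *Abca12* (0.54), the lipid transporter of lamellar granules, and *Cers3* (0.52), a ceramide synthase. Among the transcription factors and cofactors that act on envelope genes, 12 of which are reported, *Hopx* (1.12) and *Cebpb* (0.54) were significantly higher. The other 9 lipid envelope genes and 10 regulators that are reported passed in neither direction. *Hopx*, a homeodomain cofactor of differentiation, had 327, 392 and 126 CPM in KO and 128, 222 and 55.4 CPM in WT.

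**Figure D4:**
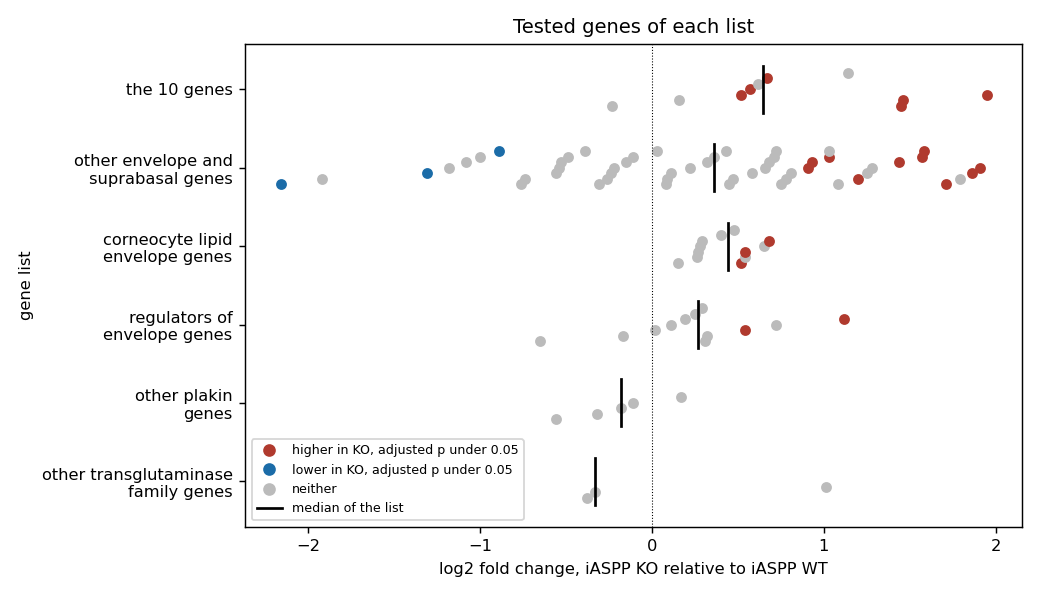
The x axis gives the log2 fold change (iASPP KO relative to iASPP WT) of each tested gene of the 10 genes and of 5 other lists, in red where significantly higher, in blue where significantly lower and in grey otherwise, with a black bar at the list's median. The lists of lipid envelope genes and of regulators are shortened ones, and the medians run from -0.33 (other transglutaminase family genes) to 0.64 (the 10 genes).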

How the data were processed

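RNA of 3 iASPP KO and 3 iASPP WT keratinocyte cultures was ribodepleted and sequenced as 42-base single reads. The authors trimmed adapters with cutadapt 2.10, aligned the reads to mm10 (GRCm38) with STAR 2.7.3 and deposited raw counts per gene name from featureCounts 2.0.0, made on exons and by strand with a GENCODE annotation. Exons of the same gene name were summed. All count columns were mapped to samples by name. A deposited table of the authors' own differential expression (log2 fold changes and p-values) was not used.

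The counts were tested with edgeR 4.0.16 (R 4.3.3, limma 3.58.1): filterByExpr by condition, TMM, glmQLFit and glmQLFTest with batch and condition, and Benjamini-Hochberg adjustment over 14916 genes at a threshold of 0.05. The fit had a common dispersion of 0.0627, 2 residual degrees of freedom and 8.17 prior ones. Within-batch values subtract the log2 CPM of WT from that of KO (prior count 2), and RPKM is CPM divided by the table's exon length. Intervals are at 95%, and the 3-count level reflects counting error alone, as the reads carry no molecular tags. The labels give each KO and WT library a batch, and the design splits each batch into both conditions. Deviations from the group means correlated at 0.302, 0.368 and 0.568 within batches and at -0.427 to 0.179 between them. No 2 libraries of the same condition agreed within sampling noise (chi-square per gene 40.1 to 169). The steps were tested on simulated data. The 10 genes and the lists were chosen with earlier results of these data known. Named are all 10, *Ppp1r13l*, genes past the threshold in other lists (at most 5 per direction) and marker lists by their sums. Other genes were named after their values were seen. The lists of lipid envelope genes and of regulators were shortened after their values were seen, by 2 genes in all that are not reported here. Alternatives were no batch term, DESeq2 1.42.0, its size factors, library totals, no filter, 10 counts in every library, robust dispersion and each batch left out. Promoters are from RefSeq (GRCm38.p6), exon numbers and shared windows from GENCODE on GRCm38, whose bounds matched the table for all 10. Python 3.11.15 with pandas 2.3.3, numpy 2.4.6 and matplotlib 3.10.9 was used for tables and figures.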

Additional observations from a re-analysis of the deposited data

How the results depend on the processing

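Every alternative set out was run, and no gene of the 10 changed direction under any of them. Of 100 values (10 genes under 10 alternatives), 81 kept their side of the threshold, 14 lost it and 5 gained it. Without the replicate block (batch), 0 genes were called higher and 0 lower, and 0 of the 10 passed. At an unadjusted p under 0.05 this unpaired fit had 360 genes higher and 331 lower and 1 of the 10, and the lowest adjusted p among the 10 was 0.973. No filter on low counts gave 624 genes higher and 491 lower. Library totals without TMM gave 455 lower and 295 higher, so that 39.3% of calls were higher in place of 52.6%, with the same 6 of the 10. With 1 batch left out at a time, 169 to 793 genes were higher, 117 to 662 lower, and 3 to 8 of the 10 higher, 3 of them (*Tgm3*, *Crct1* and *Prr9*) without batch 1 or batch 2 and 8 without batch 3. Leaving out 1 library of a pair is the same as leaving out the pair. DESeq2 called 480 genes higher and 407 lower, *Ivl* among them and *Tgm3* not, and robust dispersion kept 5 of the 10. With 3 batches and 2 residual degrees of freedom, the errors lean on the spread shared over all genes, and the cause of these changes was not tested.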
